A study of Mus musculus with 48 samples.

Results

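A set of 10 genes used to tell fibroblast subtypes of the lung apart were followed through bleomycin injury and through treatment with KIRA8 or 3G9. They were chosen by name, as the rows of the count table with 10 given Ensembl IDs, and all 10 were found among its 42548 genes. The receptors for platelet-derived growth factor are Pdgfra (ENSMUSG00000029231) and Pdgfrb (ENSMUSG00000024620). Genes of alveolar fibroblasts, the stromal cells that lie against the alveolar epithelium, are Tcf21 (ENSMUSG00000045680), Npnt (ENSMUSG00000040998), Inmt (ENSMUSG00000003477) and Wnt2 (ENSMUSG00000010797). Genes known from fibrotic fibroblasts are Cthrc1 (ENSMUSG00000054196) and Tnc (ENSMUSG00000028364). Grem1 (ENSMUSG00000074934) and Sfrp1 (ENSMUSG00000031548) encode secreted inhibitors of BMP and Wnt signalling.

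Alveolar fibroblasts support the epithelium with growth factors and lipid and carry the receptor Pdgfra, while pericytes and several fibroblast types carry Pdgfrb. In mouse lung injury, fibroblasts are known to lose part of their alveolar expression programme and to take up states that secrete matrix, among them cells marked by Cthrc1. TGFβ, which the integrin αvβ6 of epithelial cells activates locally, is a known driver of that matrix programme.

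The series sequenced RNA of mouse lung with 3'-end libraries, 48 in all, an epithelial and a whole lung library from each of 24 mice. RiboTag mice carry a ribosomal protein with an HA tag in chosen cells, and an antibody to HA recovers RNA from those cells. The labels describe anti-HA immunoprecipitation for both kinds of library. The sources used here do not say how the whole lung libraries differ in preparation. The Cre driver of the tag, the strain, the age and the time after bleomycin are likewise not given. Of the mice, 5 received bleomycin and KIRA8, a compound that inhibits the endoplasmic reticulum stress sensor IRE1α, and 4 received bleomycin and 3G9, an antibody to integrin αvβ6. Bleomycin with a control agent was given to 9 mice, and 6 received saline with a control agent. The control agent was named Vehicle in batches S061 and S135 and Axum8 in batch S151. Batch S061 held 3 KIRA8 and 3 bleomycin control mice. Batch S135 held 2 KIRA8, 2 bleomycin control and 3 saline mice, and batch S151 held 4 mice with 3G9, 4 bleomycin control and 3 saline mice. Both sexes were used.

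Total counts per library ran from 7163613 to 51797377, and levels are given as CPM, the count of a gene scaled to a library total of 1e6. Each read of a 3'-end library stands for a transcript end, so values need no length correction, and no gene's level is ranked against another's here. In batch S061, 146 genes were picked after the data were seen. The rule was at least 50 CPM in each S061 library and a median under 0.5 CPM over the others. Their restriction to S061 is thus set by the choice. They made up 6.01% to 12.7% of the counts of its epithelial libraries and 7.21% to 9.81% of its whole lung libraries. In the other batches they reached no more than 0.0529% of counts in epithelium and 0.846% in whole lung (bleomycin control mouse 149 of S135). None of the 10 fibroblast genes meets that rule, which does not show that their levels are free of batch differences. In these bulk libraries fewer cells of a type and less RNA per cell cannot be told apart. The file gives no gene symbols beyond the 10 chosen IDs, so the epithelial and stromal make-up of the libraries was not checked against other marker genes.

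Tnc, the matrix glycoprotein tenascin-C that is scarce in healthy adult tissue, had the largest fold change of the 10 genes between bleomycin control and saline mice in whole lung. In batch S151 its levels were 111.9, 90.3, 106.6 and 167.4 CPM in bleomycin control mice, against 5.17, 7.13 and 8.34 CPM in saline mice. In batch S135 they were 90.5 and 22.8 CPM in bleomycin control mice, against 1.48, 4.25 and 5.92 CPM in saline mice. The arms did not overlap in either batch, although the S135 bleomycin control mice lay far apart. Over all 24 whole lung libraries Tnc rose 13.4-fold in bleomycin control over saline mice (log2 fold change 3.74 ± 0.39 SE, 95% interval 2.92 to 4.56). The adjusted p was 1.18e-05 by edgeR's quasi-likelihood test with arm and batch as terms.

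Sfrp1, a secreted protein that binds Wnt ligands, also rose in whole lung. In batch S151 it had 78.4, 55.0, 84.5 and 132.0 CPM in bleomycin control mice, against 19.1, 12 and 19.5 CPM in saline mice. In batch S135 it had 126.6 and 39.9 CPM in bleomycin control mice, against 16.1, 24.4 and 21.1 CPM in saline mice. Every bleomycin control mouse was above every saline mouse of its batch. The fitted rise of bleomycin control over saline was 3.79-fold (log2 1.92 ± 0.36 SE, interval 1.16 to 2.68, edgeR adjusted p = 0.00285).

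Inmt, an N-methyltransferase of indoles that is abundant in alveolar fibroblasts of the mouse, fell. In batch S151 it had 473.8, 830.1, 593.4 and 457.5 CPM in bleomycin control mice, against 1266.7, 1070.1 and 1219.6 CPM in saline mice. In batch S135 it had 1475.2 and 2534.0 CPM in bleomycin control mice, against 2433.4, 3245.3 and 3434.7 CPM in saline mice. The arms were apart in S151 and overlapped in S135, where bleomycin control mouse 149 lay within the saline range. The whole lung library of that mouse also held 0.846% of its counts in the 146 genes picked for S061. A link of those transcripts with its Inmt level was not tested. Inmt fell by 0.94 on the log2 scale in bleomycin control against saline mice (± 0.23 SE, interval -1.41 to -0.47, edgeR adjusted p = 0.0111).

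Promoters are shown for Tnc and Inmt because Tnc had the larger of the 2 called rises and Inmt the called fall. That of Sfrp1 is not shown. Tnc lies at chr4:63959785-64047015 and Inmt at chr6:55170627-55174990 (GRCm38.p6, RefSeq). Each is the minus strand from 250 bases before to 50 bases after an annotated start, at chr4:64046966-64047265 for Tnc and chr6:55174941-55175240 for Inmt. Capitals mark the matches, on either strand, to 5 short strings that were searched, none of which lies inside another. The AP-1 string was TGANTCA and the string of the TEAD factors was GGAATG. The TATA box was searched as TATAAA and the core of a SMAD site as GTCTG. The E-box searched, a site bound by factors of the class of Tcf21, was CAGCTG.
Tnc: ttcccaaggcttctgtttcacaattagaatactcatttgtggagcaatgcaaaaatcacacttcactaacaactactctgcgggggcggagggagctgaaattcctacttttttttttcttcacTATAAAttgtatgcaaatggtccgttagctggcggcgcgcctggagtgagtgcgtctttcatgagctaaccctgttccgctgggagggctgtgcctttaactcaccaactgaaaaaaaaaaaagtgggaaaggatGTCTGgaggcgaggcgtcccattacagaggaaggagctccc
Inmt: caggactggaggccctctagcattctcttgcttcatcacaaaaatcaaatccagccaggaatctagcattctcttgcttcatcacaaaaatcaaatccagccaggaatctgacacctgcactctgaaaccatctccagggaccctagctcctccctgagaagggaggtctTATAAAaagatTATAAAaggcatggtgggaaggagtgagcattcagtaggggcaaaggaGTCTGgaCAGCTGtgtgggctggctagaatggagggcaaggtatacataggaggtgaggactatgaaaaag
Counted from the start base as 0, the Tnc window held the TATA box string at -126 and the SMAD string at 9. Another annotated start of Tnc has its window, not shown, at chr4:64046887-64047186. That window held the TATA box string at -205 and the SMAD string at -70 and 39. The Inmt window held the TATA box string at -80 and -69, the SMAD string at -21 and the E-box at -14. Of 32851 mouse promoter windows of the same length, 13.6% held the TATA box string, 49.6% the SMAD string, 16.3% the E-box, 7.81% the AP-1 string and 14.7% the TEAD string. A match is a string of letters and says nothing on whether a factor binds there.

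**Figure D1:**
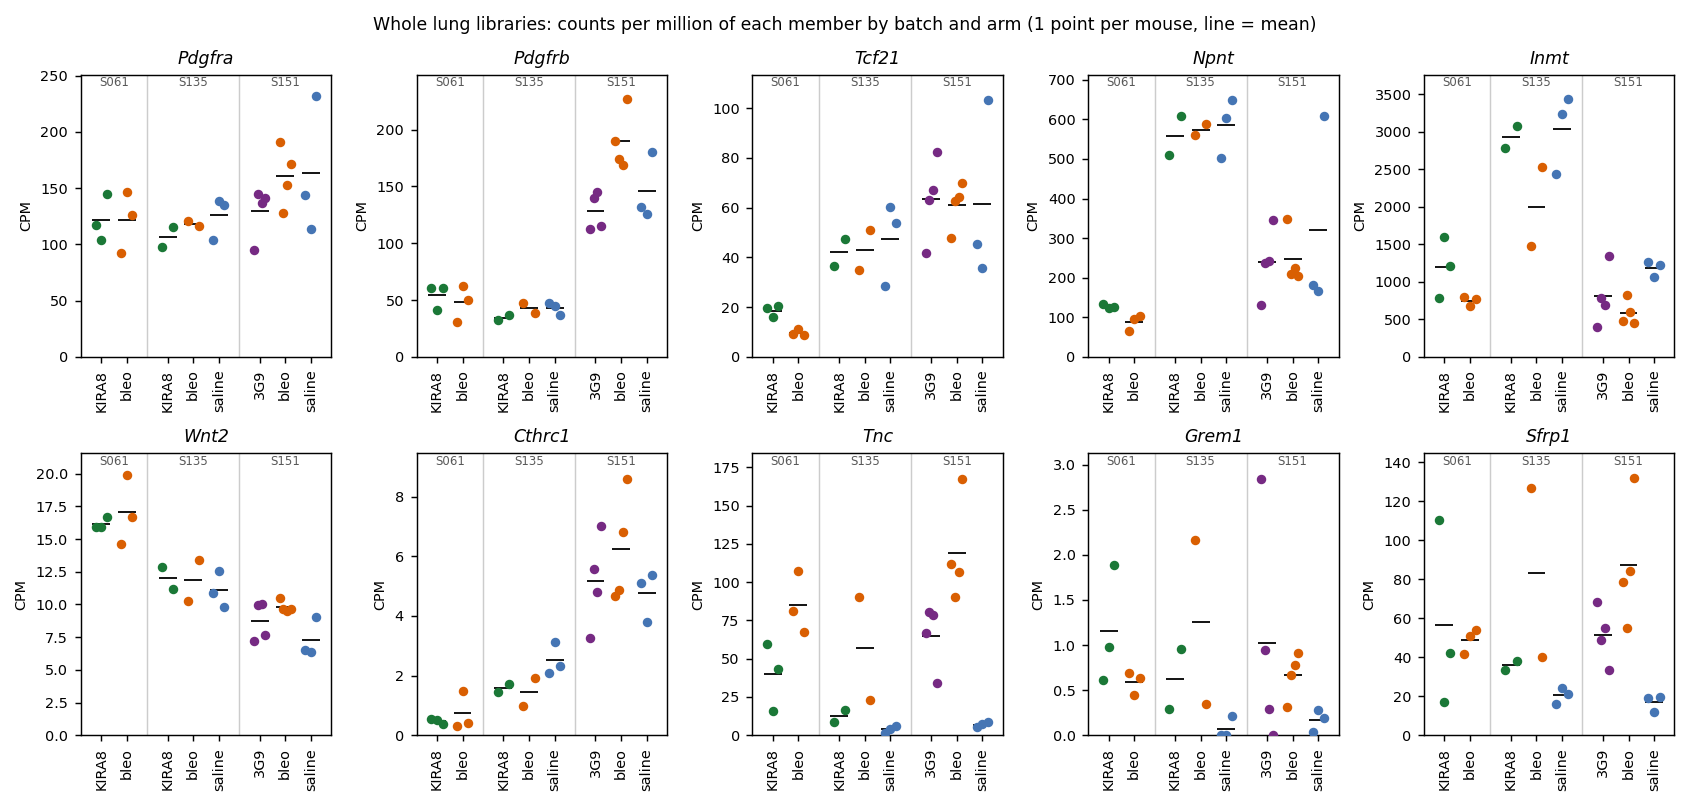
Whole lung level of each of the 10 genes in CPM (vertical axis) for every mouse (1 point each), by batch and arm, with a line at the mean (bleo stands for bleomycin control). Tnc and Sfrp1 of bleomycin control mice lie above saline mice in S135 and S151, and levels of most genes differ between batches.

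Grem1, an antagonist of BMP ligands, was near the limit of detection. The 6 saline whole lung libraries held 21 Grem1 counts in sum, against 190 in the 9 bleomycin control libraries. Levels were 0.315 to 0.913 CPM in bleomycin control mice of S151, against 0.0311 to 0.284 CPM in saline mice. In S135 they were 2.16 and 0.342 CPM in bleomycin control mice, against 0.0, 0.0 and 0.211 CPM in saline mice. The arms did not overlap in either batch, yet the fitted difference between bleomycin control and saline mice missed the threshold (log2 2.30 ± 0.83 SE, interval 0.59 to 4.02, edgeR adjusted p = 0.0786). DESeq2 called it (adjusted p = 0.0227), as did a fit of the 2 arms alone (edgeR adjusted p = 0.0297) and a fit without 3G9 mouse 228 (edgeR adjusted p = 0.0371). Without bleomycin control mouse 148, which had 2.16 CPM, the edgeR value was 1.83 on the log2 scale with an adjusted p of 0.188.

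The other 6 genes did not pass the test in whole lung. Cthrc1, a secreted protein that marks collagen-producing fibroblasts of the fibrotic lung, had 0.989 and 1.91 CPM in bleomycin control mice of S135, against 2.09, 3.12 and 2.32 CPM in saline mice. In S151 it had 4.67, 4.88, 6.83 and 8.61 CPM in bleomycin control mice, against 5.1, 3.81 and 5.36 CPM in saline mice. The batches thus differed in sign, and the fitted change of bleomycin control over saline was -0.10 on the log2 scale (interval -0.75 to 0.56, edgeR adjusted p = 0.896). Pdgfra ranged from 92.5 to 190.8 CPM in bleomycin control mice and from 103.8 to 232.0 CPM in saline mice, and gave -0.17 (interval -0.45 to 0.11). Pdgfrb gave 0.03 (interval -0.25 to 0.31). Wnt2, a Wnt ligand of lung mesenchyme, gave 0.19 (interval -0.07 to 0.46), with 9.54 to 10.5 CPM in bleomycin control mice of S151, against 6.39 to 9.01 CPM in saline mice. Tcf21, a transcription factor of lung mesenchyme, gave -0.29 (interval -0.74 to 0.17), and Npnt, a matrix ligand of integrins, gave -0.38 (interval -0.89 to 0.13), and 0.01 without saline mouse 230. Their edgeR adjusted p-values lay between 0.349 and 0.916. All 6 intervals lie within a 2-fold change in either direction.

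Of the 10 genes, 2 were thus higher and 1 lower in bleomycin control than in saline mice in whole lung. Among all 19345 genes tested, 6.01% were higher and 4.14% lower. The median log2 change was -0.03 over the 10 genes and -0.01 over all genes. None of the 3 calls was reached within S135 alone, where 2 mice stood against 3. There the log2 changes were 3.75 for Tnc, 1.93 for Sfrp1 and -0.62 for Inmt, with edgeR adjusted p-values of 0.209, 0.202 and 0.374.

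**Figure D2:**
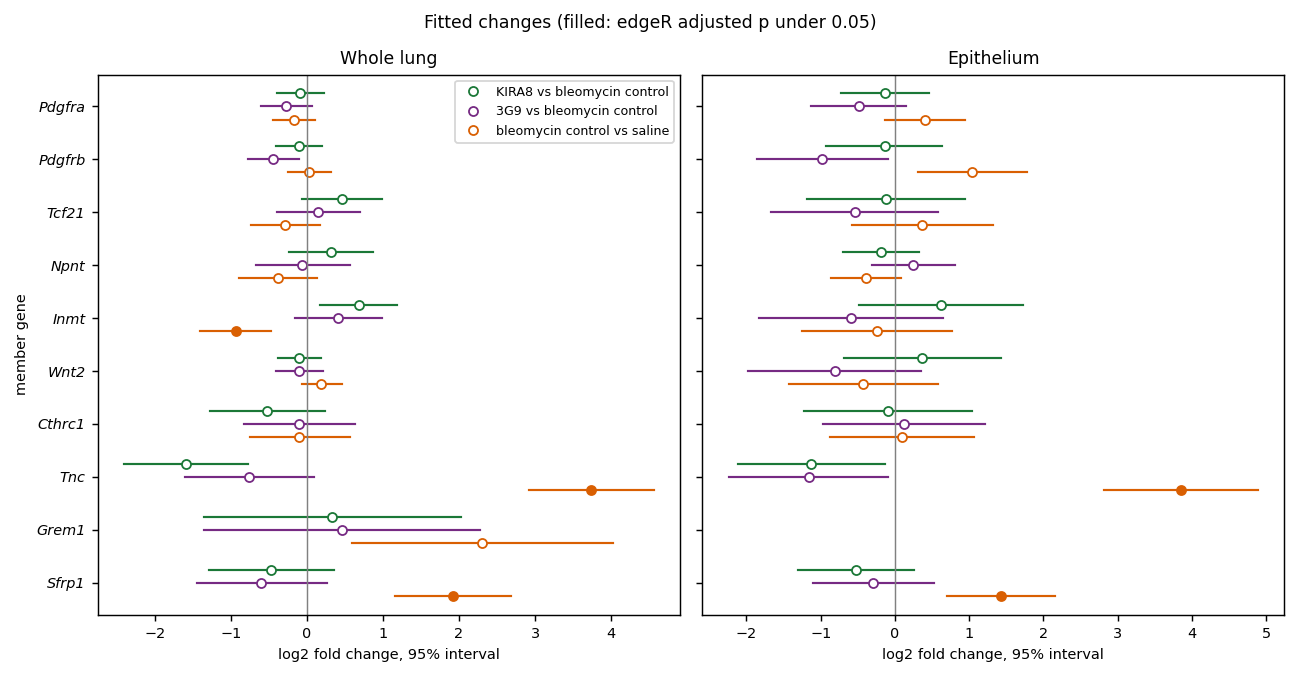
Fitted log2 fold change (horizontal axis) with its 95% interval for each gene in whole lung (left) and epithelium (right), for KIRA8 against bleomycin control, 3G9 against bleomycin control and bleomycin control against saline. Filled points have an edgeR adjusted p under 0.05, which holds for Tnc, Sfrp1 and Inmt in whole lung and for Tnc and Sfrp1 in epithelium, each for bleomycin control against saline.

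KIRA8 was set against bleomycin control to ask what inhibition of IRE1α does to the injured lung. In whole lung Tnc had 59.9, 16.1 and 43.1 CPM in KIRA8 mice of S061, against 81.4, 107.3 and 67.2 CPM in bleomycin control mice. In S135 it had 8.88 and 16.3 CPM in KIRA8 mice, against 90.5 and 22.8 CPM in bleomycin control mice. Each KIRA8 mouse was below each bleomycin control mouse of its batch. The fitted difference of KIRA8 from bleomycin control was -1.59 on the log2 scale (± 0.39 SE, interval -2.40 to -0.78), with an edgeR p of 0.000582 and an adjusted p of 0.0636. It missed the threshold in edgeR and passed it in DESeq2 (log2 -1.60, adjusted p = 0.000905). Of 24 edgeR fits that each left out 1 mouse, 2 passed it. These were without bleomycin control mouse 149 (adjusted p = 0.026) and without KIRA8 mouse 20 (adjusted p = 0.0362). The other 22 missed it, with an edgeR adjusted p of up to 0.156 (without KIRA8 mouse 32).

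Inmt and Tcf21 had positive fitted differences in KIRA8 whole lung, and neither passed. Inmt had 787.5, 1600.3 and 1217.4 CPM in KIRA8 mice of S061, against 796.7, 684.3 and 769.3 CPM in bleomycin control mice. In S135 it had 2782.6 and 3073.9 CPM in KIRA8 mice, against 1475.2 and 2534.0 CPM in bleomycin control mice. The arms overlapped in S061 through KIRA8 mouse 20 and were apart in S135. The fitted log2 difference of KIRA8 from bleomycin control was 0.68 (interval 0.17 to 1.18, edgeR adjusted p = 0.182).

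Tcf21 had 19.6, 16.0 and 20.3 CPM in KIRA8 mice of S061, against 9.19, 11.2 and 8.98 CPM in bleomycin control mice. In S135 it had 36.4 and 47.6 CPM in KIRA8 mice, against 34.9 and 50.9 CPM in bleomycin control mice. The S061 arms were apart, with a log2 change of 0.89 and an edgeR adjusted p of 0.0375 within that batch, and the S135 arms overlapped with a change of -0.03. The fit over both batches gave 0.46 (interval -0.06 to 0.98, edgeR adjusted p = 0.395).

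Sfrp1 differed among KIRA8 mice. It had 110.6, 16.9 and 42.2 CPM in KIRA8 mice of S061, against 41.8, 50.7 and 54.0 CPM in bleomycin control mice. In S135 it had 33.4 and 38.2 CPM in KIRA8 mice, against 126.6 and 39.9 CPM in bleomycin control mice. The fitted log2 difference of KIRA8 from bleomycin control was -0.47 (interval -1.29 to 0.35, edgeR adjusted p = 0.599), and -1.02 without KIRA8 mouse 20, which had both the highest Tnc and the highest Sfrp1 of the KIRA8 mice.

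The remaining 6 genes lay between -0.52 for Cthrc1 and 0.33 for Grem1 in KIRA8 against bleomycin control whole lung. Without bleomycin control mouse 31 the Cthrc1 value was -0.05, and without KIRA8 mouse 41 the Grem1 value was 0.0. For both genes S061 and S135 differed in sign. Npnt gave 0.32 (interval -0.24 to 0.87), Pdgfra -0.09, Pdgfrb -0.10 and Wnt2 -0.10. In all, 0 of the 10 genes were called by edgeR in this comparison, 2 had an unadjusted p under 0.05 (Inmt and Tnc), and DESeq2 called 1. The share of all tested genes called by edgeR was 0.527%. Shares of genes called, here and below, are at the adjusted threshold and give no background for counts at an unadjusted p.

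3G9 was set against bleomycin control in batch S151 to ask what blocking αvβ6 does. Tnc had 66.6, 80.4, 78.8 and 34.0 CPM in whole lung of 3G9 mice, against 111.9, 90.3, 106.6 and 167.4 CPM in bleomycin control mice. The arms did not overlap, and the fitted log2 difference of 3G9 from bleomycin control was -0.76 (interval -1.60 to 0.09, edgeR adjusted p = 0.804). Pdgfrb had 113.0, 139.5, 145.5 and 115.2 CPM in 3G9 mice, against 190.1, 174.3, 168.9 and 226.9 CPM in bleomycin control mice. These arms were also apart, with a log2 difference of -0.45 (interval -0.78 to -0.11, edgeR adjusted p = 0.411). Sfrp1 overlapped between the arms, with 68.5, 49.1, 55.2 and 33.3 CPM in 3G9 mice, against 78.4, 55.0, 84.5 and 132.0 CPM in bleomycin control mice (log2 -0.60, interval -1.45 to 0.26).

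Grem1 ranged widely among the 3G9 mice, at 2.84, 0.948, 0.286 and 0.0 CPM (log2 0.46 against bleomycin control, and -0.86 without 3G9 mouse 218). Inmt had 402.6, 790.4, 696.6 and 1349.5 CPM in 3G9 mice, a spread that covers the whole bleomycin control range in S151 (log2 0.41, interval -0.16 to 0.98, and 0.04 without 3G9 mouse 228). The other 5 genes gave log2 differences of -0.27 for Pdgfra, -0.10 for Wnt2 and Cthrc1, -0.06 for Npnt and 0.15 for Tcf21. By edgeR 0 of the 10 genes were called for 3G9 against bleomycin control, with 1 (Pdgfrb) at an unadjusted p under 0.05, and DESeq2 called 0. The share of all tested genes called was 0.196%.

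Treated mice were also set against saline mice, which shares those saline libraries with the bleomycin control comparison. Tnc in whole lung of 3G9 mice was 7.92-fold that of saline mice (log2 2.99 ± 0.45 SE, interval 2.05 to 3.92, edgeR adjusted p = 0.000421). It was the 1 gene of the 10 called in that comparison, where 7.11% of all tested genes were higher. Sfrp1 gave 1.32 on the log2 scale (interval 0.40 to 2.25, edgeR adjusted p = 0.0605) and Grem1 2.76 (interval 0.82 to 4.70, edgeR adjusted p = 0.0594), and DESeq2 called both. Without 3G9 mouse 218 the Grem1 value was 1.45. Both receptors had intervals below 0 for 3G9 against saline mice, and neither passed. The log2 differences were -0.44 for Pdgfra (interval -0.80 to -0.08, edgeR adjusted p = 0.104) and -0.41 for Pdgfrb (interval -0.77 to -0.06, edgeR adjusted p = 0.123). Without saline mouse 230 they were -0.25 for Pdgfra (edgeR adjusted p = 0.36) and -0.37 for Pdgfrb. In S151, the only batch with 3G9, the arms overlapped for both receptors. Inmt gave -0.54 (edgeR adjusted p = 0.239). The value was -0.90 without 3G9 mouse 228 (edgeR adjusted p = 0.0284) and -0.32 without 3G9 mouse 218 (edgeR adjusted p = 0.592). Of 24 fits that each left out 1 mouse, only 1 called Inmt. Npnt gave -0.44, and 0.10 without saline mouse 230. The others gave -0.19 for Cthrc1, -0.13 for Tcf21 (0.17 without saline mouse 230) and 0.09 for Wnt2.

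In whole lung of KIRA8 mice 0 of the 10 genes were called against saline by edgeR, with 3 at an unadjusted p under 0.05 (Tnc, Grem1 and Sfrp1). The share of all tested genes called was 0.258%. Tnc gave 2.15 (interval 1.19 to 3.12, edgeR adjusted p = 0.0556) and Sfrp1 1.45 (interval 0.50 to 2.41, edgeR adjusted p = 0.243), and DESeq2 called both. In S135, which alone held both arms, Tnc had 8.88 and 16.3 CPM in KIRA8 mice, against 1.48, 4.25 and 5.92 CPM in saline mice. Inmt there had 2782.6 and 3073.9 CPM in KIRA8 mice, within the 2433.4 to 3434.7 CPM of saline mice, and its fitted log2 difference was -0.27 (interval -0.87 to 0.33). Grem1 gave 2.64 (interval 0.42 to 4.86, edgeR adjusted p = 0.387). The other genes gave -0.61 for Cthrc1, -0.26 for Pdgfra, -0.07 for Pdgfrb, -0.06 for Npnt, 0.09 for Wnt2 and 0.17 for Tcf21.

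Epithelial libraries carried most of the 10 genes at a small share of their whole lung level. The epithelial CPM of Pdgfra was 3.17% to 15.3% of the whole lung CPM of the same mouse, with a median of 6.18% over 24 mice. The medians were 8.83% for Pdgfrb, 6.72% for Tcf21, 7.67% for Inmt, 8.93% for Wnt2, 7.92% for Tnc and 14.8% for Sfrp1. Npnt stood higher at 28.9%, and Cthrc1 at 74.3%, with 8 of 24 mice at or above 100%. Grem1 had 0 counts in the 6 saline epithelial libraries, which allows up to 0.0222 CPM by counting error alone, and 13 counts in the 9 bleomycin control libraries. It was too low in epithelium to be tested.

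**Figure D3:**
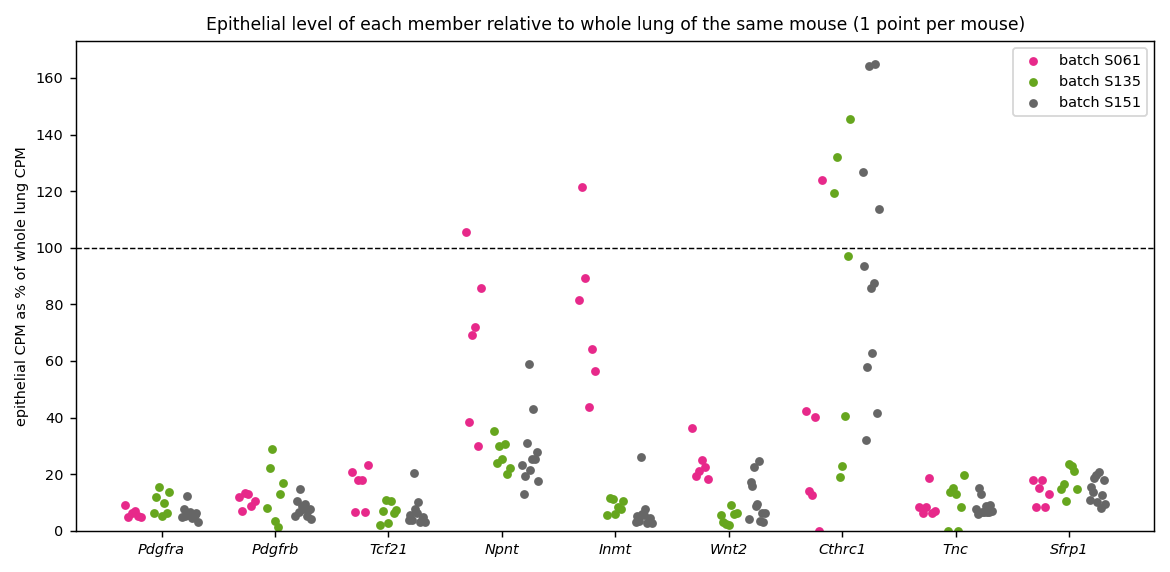
Epithelial CPM as a percent of whole lung CPM of the same mouse (vertical axis) for 9 genes, 1 point per mouse, coloured by batch, with a dashed line at 100%. Apart from Npnt and Cthrc1 the genes lie mostly under 30%, Cthrc1 spreads from 0% to 164.9%, and the S061 mice lie above all others for Inmt, while for Npnt and Wnt2 they overlap with S151 mice.

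Between compartments of the same saline mice, 8 of the 9 genes tested were lower in epithelium than in whole lung, with the mouse as a block. Across the genome 30.3% of 14885 genes were lower. Genes entered on their counts in either compartment, so a gene could enter through whole lung alone and then be called lower. Mean saline Wnt2 was 0.82 CPM in epithelium and 9.19 CPM in whole lung. Mean saline Tnc in epithelium was 0.184 CPM in S135 and 0.669 CPM in S151, against 3.88 and 6.88 CPM in whole lung. Tcf21 had the lowest value at -3.63 on the log2 scale (± 0.33 SE, edgeR adjusted p = 3.06e-06), and Inmt (-3.52), Pdgfrb (-3.47) and Pdgfra (-3.45) were close to it. Tnc gave -3.09, Wnt2 -2.77, Sfrp1 -1.82 and Npnt -1.25. Cthrc1 gave -0.08 with an interval of -1.08 to 0.91 (edgeR adjusted p = 0.887), on 363 epithelial and 589 whole lung counts summed over the 6 mice.

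In bleomycin control mice, with the same rule of entry, the same 8 genes were lower in epithelium than in whole lung, against 30.3% of 15624 genes tested. Log2 differences were -3.19 for Pdgfra, -3.00 for Tnc, -2.85 for Tcf21, -2.70 for Wnt2, -2.60 for Pdgfrb, -2.40 for Sfrp1, -2.16 for Inmt and -0.90 for Npnt. Cthrc1 gave -0.05 (interval -0.90 to 0.80). Within S061 alone, Inmt gave -0.26 (edgeR adjusted p = 0.286) and Npnt -0.06 (edgeR adjusted p = 0.797), so neither was called lower in epithelium in that batch.

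The S061 mice differed in the share itself. The epithelial level of Inmt was 43.8% to 121.5% of the whole lung level in the 6 mice of S061, against 5.49% to 11.4% in the 7 of S135 and 2.65% to 26.2% in the 11 of S151. In CPM the epithelial libraries held 957.2, 700.8 and 780.8 in KIRA8 mice of S061 and 650.3, 611.7 and 434.4 in bleomycin control mice of S061. The same mice carried the 146 batch-limited genes at 6.01% to 12.7% of epithelial counts, and the part of those transcripts in the Inmt level was not tested. Npnt had a median share of 70.7% in S061, 25.3% in S135 and 25.2% in S151. Wnt2 had 21.9% in S061, 5.74% in S135 and 8.88% in S151. Tcf21 had 17.9% in S061, 7.04% in S135 and 4.82% in S151. The median for Cthrc1 went the other way, with 27.2% in S061, 97.2% in S135 and 87.7% in S151. It rested on 26 epithelial Cthrc1 counts in all in S061. The shares overlapped, at 0.0% to 123.8% in S061, 19.0% to 145.4% in S135 and 32.1% to 164.9% in S151. Only for Inmt were all S061 mice above all other mice.

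In epithelial libraries, bleomycin control mice showed higher Tnc and Sfrp1 than saline mice, at far lower levels than in whole lung. The median epithelial share of Tnc, 7.92% of whole lung, lay near the 6.18% of Pdgfra and 8.83% of Pdgfrb. A rise in epithelial cells and stromal RNA carried over from the same lungs cannot be told apart here, and the part of each was not tested. Tnc had 12.4 and 3.45 CPM in bleomycin control mice of S135, against 0.0, 0.551 and 0.0 CPM in saline mice. In S151 it had 8.5, 5.21, 13.7 and 10.9 CPM in bleomycin control mice, against 0.786, 0.634 and 0.586 CPM in saline mice. The arms were apart in both batches, and Tnc rose by a log2 change of 3.86 in bleomycin control over saline (± 0.50 SE, interval 2.82 to 4.89, edgeR adjusted p = 1.46e-05).

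Sfrp1 in epithelium had 20.7 and 4.23 CPM in bleomycin control mice of S135, against 2.36, 5.78 and 4.83 CPM in saline mice. In S151 it had 8.5, 8.52, 15.7 and 10.5 CPM in bleomycin control mice, against 2.6, 2.5 and 1.82 CPM in saline mice. The arms overlapped in S135 through mouse 149 and were apart in S151. Sfrp1 rose by a log2 change of 1.43 in bleomycin control over saline (± 0.35 SE, interval 0.70 to 2.15, edgeR adjusted p = 0.00987). Without mouse 148 the value was 1.17 with an edgeR adjusted p of 0.0684.

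Pdgfrb in epithelium had 10.4 and 11.1 CPM in bleomycin control mice of S135, against 3.89, 1.49 and 0.502 CPM in saline mice. In S151 it had 9.62, 18.5, 24.7 and 11.8 CPM in bleomycin control mice, against 8.64, 12 and 7.81 CPM in saline mice. The arms were apart in S135 and overlapped in S151. The fitted log2 change of bleomycin control over saline was 1.04 (interval 0.31 to 1.78, edgeR adjusted p = 0.0674), and DESeq2 called it (adjusted p = 0.024). Of 24 edgeR fits that each left out 1 mouse, 3 called it. These were without bleomycin control mouse 204, saline mouse 221 or bleomycin control mouse 225 (edgeR adjusted p 0.0267, 0.0372 and 0.0424). The other 21 did not, with an edgeR adjusted p of up to 0.152 (without saline mouse 152).

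Inmt, which fell in whole lung, had 168.7 and 284.8 CPM in epithelium of S135 bleomycin control mice, against 133.6, 187.3 and 292.8 CPM in saline mice (fitted log2 -0.24, interval -1.25 to 0.77, edgeR adjusted p = 0.826). In S151 it had 14.8, 42.6, 155.2 and 12.5 CPM in bleomycin control mice, against 42.4, 81.7 and 32.3 CPM in saline mice. The arms overlapped in both batches, and without bleomycin control mouse 208R, which had 155.2 CPM, the fitted value was -0.90. Pdgfra gave 0.40 (interval -0.13 to 0.94), Tcf21 0.37 (-0.21 without mouse 208R), Cthrc1 0.10, Npnt -0.39 (interval -0.86 to 0.08) and Wnt2 -0.43, none of them called. Of the 9 genes tested in epithelium, 2 were higher and 0 lower in bleomycin control than in saline mice, where 4.55% of the 17291 genes tested were higher. The median log2 change was 0.37 over the 9 genes and -0.00 over all genes. As in whole lung, neither call was reached within S135 alone (Tnc 5.05, edgeR adjusted p = 0.0684, and Sfrp1 1.28, edgeR adjusted p = 0.349).

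**Figure D4:**
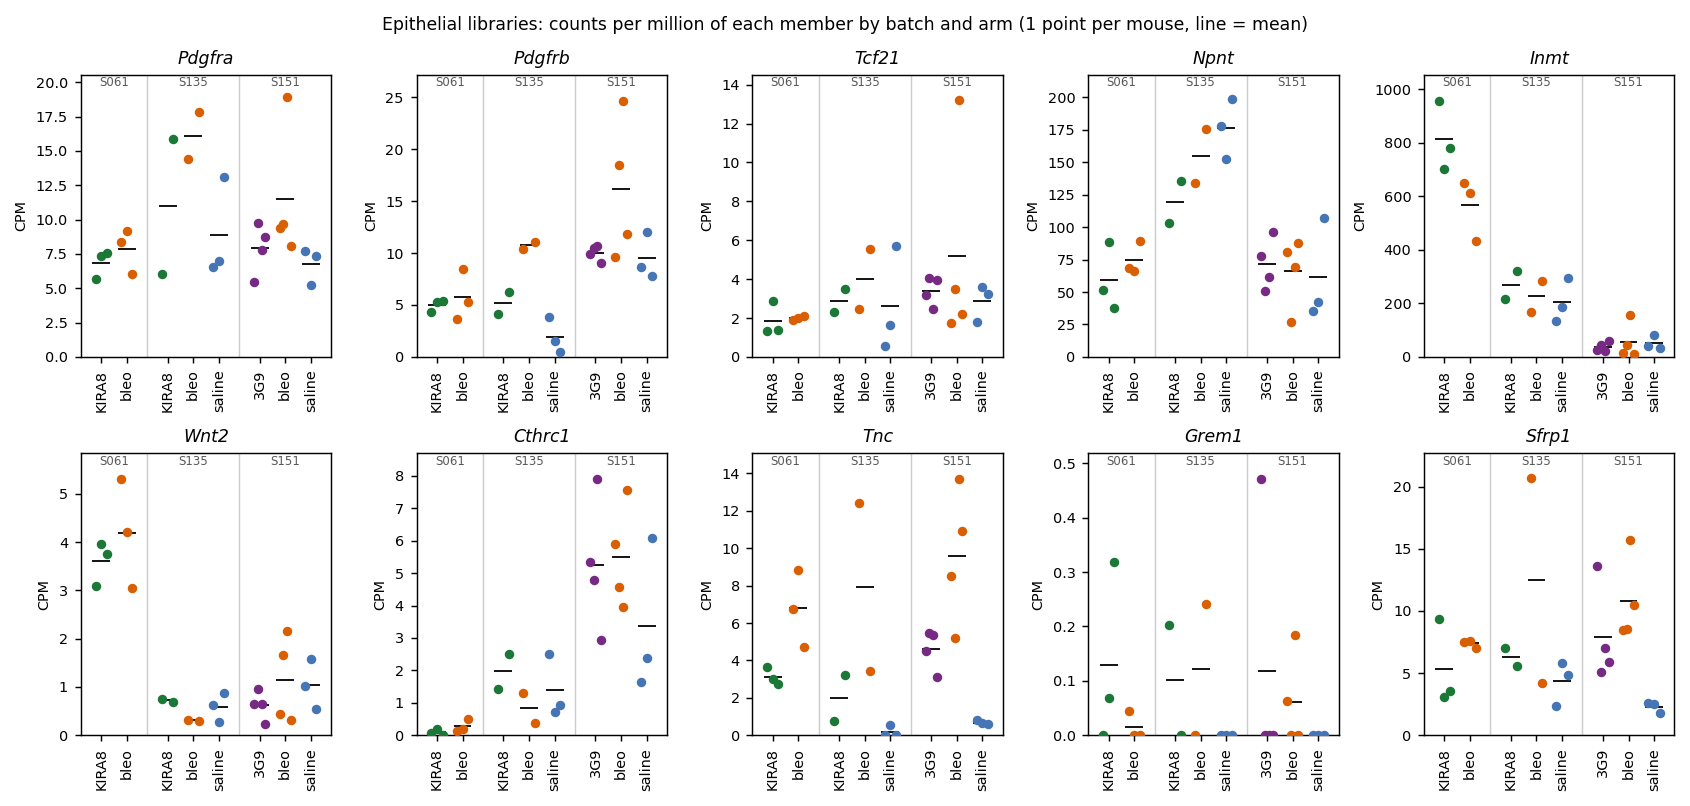
Epithelial level of each of the 10 genes in CPM (vertical axis) for every mouse (1 point each), by batch and arm, with a line at the mean (bleo stands for bleomycin control). Tnc of saline mice lies under 1 CPM, below every bleomycin mouse of its batch, and Inmt is highest in S061.

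Neither treatment moved any of the 9 genes past the threshold in epithelium when set against bleomycin control. For KIRA8, Tnc had 3.66, 3.01 and 2.74 CPM in KIRA8 mice of S061, against 6.77, 8.86 and 4.74 CPM in bleomycin control mice. In S135 it had 0.741 and 3.21 CPM in KIRA8 mice, against 12.4 and 3.45 CPM in bleomycin control mice. Each KIRA8 mouse was below each bleomycin control mouse of its batch, as in whole lung, and the fitted log2 difference was -1.13 (interval -2.12 to -0.14, edgeR adjusted p = 0.349). Inmt gave 0.62 (interval -0.49 to 1.73) and Sfrp1 -0.52 (interval -1.30 to 0.26). Wnt2 gave 0.37, Cthrc1 -0.09, Tcf21 -0.12, Pdgfra -0.13, Pdgfrb -0.14 and Npnt -0.19. Of 9 genes 0 were called, 1 had an unadjusted p under 0.05 (Tnc), DESeq2 called 0, and 0.26% of all genes tested were called.

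For 3G9, Tnc had 4.49, 5.45, 5.35 and 3.09 CPM in epithelium of 3G9 mice, against 8.5, 5.21, 13.7 and 10.9 CPM in bleomycin control mice (log2 -1.16, interval -2.24 to -0.09). Pdgfrb had 9.93, 10.5, 10.7 and 9.01 CPM in 3G9 mice, against 9.62, 18.5, 24.7 and 11.8 CPM in bleomycin control mice (log2 -0.98, interval -1.86 to -0.09). Both pairs of arms overlapped. Each had an unadjusted p under 0.05 and an edgeR adjusted p of 1. The other log2 differences were -0.81 for Wnt2, -0.59 for Inmt, -0.54 for Tcf21, -0.49 for Pdgfra, -0.29 for Sfrp1, 0.12 for Cthrc1 and 0.25 for Npnt. Without bleomycin control mouse 208R the sign turned for Inmt (0.36) and Tcf21 (0.30), and Wnt2 was -0.37. By edgeR 0 of the 9 genes and 0.0% of all genes tested were called, with 566 genes at an unadjusted p under 0.05. DESeq2 called 0 of the 9.

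Against saline mice, epithelial Tnc was 6.62-fold as high in KIRA8 mice (log2 2.73 ± 0.63 SE, interval 1.44 to 4.01, edgeR adjusted p = 0.0267) and 6.47-fold in 3G9 mice (log2 2.69 ± 0.55 SE, interval 1.56 to 3.83, edgeR adjusted p = 0.00398). It was the 1 gene of 9 called in each, where 0.833% of all genes tested were higher with KIRA8 and 2.89% with 3G9. The KIRA8 call was lost without any 1 of KIRA8 mice 155 and 20 and bleomycin control mice 17, 208R and 45, with edgeR adjusted p-values from 0.0502 to 0.0977, and without batch S061 (0.24). With the arms compared alone both calls were lost (edgeR adjusted p = 0.3 for KIRA8 and 0.102 for 3G9, at log2 3.17 and 2.40). Sfrp1 gave 0.91 with KIRA8 (interval 0.00 to 1.81, edgeR adjusted p = 0.348) and 1.14 with 3G9 (interval 0.24 to 2.03, edgeR adjusted p = 0.151). With KIRA8 the other genes ran from -0.57 for Npnt to 0.90 for Pdgfrb, with Wnt2 at -0.05, Cthrc1 at 0.01, Tcf21 at 0.25, Pdgfra at 0.27 and Inmt at 0.37. With 3G9 they ran from -1.24 for Wnt2 (interval -2.48 to 0.01) to 0.22 for Cthrc1, with Inmt at -0.83, Tcf21 at -0.17, Npnt at -0.14, Pdgfra at -0.09 and Pdgfrb at 0.07.

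Whether a response differed between compartments was tested as an interaction over all 48 libraries. Grem1 entered these fits through its whole lung counts, and as it had 45 counts in all over the 24 epithelial libraries its fitted differences are not given. For bleomycin control against saline, 0 of the 10 genes were called, against 0.343% of 19808 genes, with 1 (Pdgfrb) at an unadjusted p under 0.05 and 0 called by DESeq2. The Tnc response differed by -0.07 on the log2 scale, epithelium minus whole lung, with an interval of -1.03 to 0.89. Pdgfrb differed by 0.93 (interval 0.12 to 1.74, edgeR adjusted p = 0.398) and Sfrp1 by -0.50 (interval -1.01 to 0.02). The Inmt difference was 0.33 (interval -0.56 to 1.22), so the fall called in whole lung alone was not shown to differ from epithelium. Pdgfra gave 0.52, Tcf21 0.43, Cthrc1 0.34, Npnt -0.10 and Wnt2 -0.78.

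For KIRA8 the interaction was called for 0 of the 10 genes, against 0.0505% of all genes, with 1 (Npnt) at an unadjusted p under 0.05 and 0 called by DESeq2. Npnt differed by -0.53 (interval -0.99 to -0.06, edgeR adjusted p = 0.348). The others ran from -0.47 for Tcf21 to 0.49 for Wnt2, with Pdgfra at -0.07, Pdgfrb at 0.03, Sfrp1 at 0.06, Inmt at 0.08, Cthrc1 at 0.23 and Tnc at 0.45. For 3G9 it was called for 0 of the 10 genes and 0.0% of all genes, with 448 genes but none of the 10 at an unadjusted p under 0.05, and DESeq2 called 0 of the 10. The differences ran from -0.47 for Wnt2 to 0.37 for Npnt, with Pdgfrb at -0.38, Tcf21 at -0.32, Inmt at -0.31, Tnc at -0.23, Pdgfra at -0.18, Cthrc1 at 0.18 and Sfrp1 at 0.29. Without bleomycin control mouse 208R, Tcf21 was 0.14 and Inmt 0.20.

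Whether pairs of the 10 genes varied together among mice of the same arm and batch was tested in whole lung. The mean of each arm within each batch was subtracted from log2(CPM + 0.5), and Pearson's r was computed over 24 mice for all 45 pairs. Probabilities came from 100000 permutations of mice within arm and batch, adjusted over the 45 pairs, and all the values of a mouse share 1 library and its depth. Of the pairs, 6 had an adjusted permutation p under 0.05 for r, and neither Grem1 nor Wnt2 is in any of them. Pairs of other genes were not examined, so the share over all genes that would stand beside this count is not known.

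Pdgfra went with Npnt at r = 0.84 (Spearman's rho 0.80, permutation p = 0.00068 for r and 0.00108 for rho, adjusted 0.0153 and 0.0243). The r was 0.71 in S061, 0.91 in S135 and 0.90 in S151, and 0.74 without the 2 mice farthest from the median Pdgfra. Tcf21 went with Cthrc1 at r = 0.61 (rho 0.72, permutation p = 0.00037 and 0.00047, adjusted 0.0153 and 0.0211), with 0.59, 0.78 and 0.69 in S061, S135 and S151 and 0.68 without the 2 farthest mice. These are the pairs that also passed on ranks.

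Tnc went with Sfrp1 at r = 0.79 (rho 0.72, permutation p = 0.0012 and 0.00457, adjusted 0.018 and 0.0685). The r was 0.89, 0.87 and 0.67 in S061, S135 and S151, and 0.75 without the 2 farthest mice. Inmt ran against Sfrp1 at r = -0.70 (rho -0.56, permutation p = 0.00479 and 0.0402, adjusted 0.0436 and 0.152), with -0.98, -0.59 and -0.72 by batch and -0.74 without the 2 farthest.

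Pdgfra also went with Tcf21 (r = 0.72, rho 0.63, permutation p = 0.00545 and 0.00729, adjusted 0.0436 and 0.082) and with Pdgfrb (r = 0.67, rho 0.59, permutation p = 0.00582 and 0.0207, adjusted 0.0436 and 0.131). Without the 2 farthest mice these r values were 0.55 and 0.62. By batch Pdgfra and Tcf21 gave 0.74, 0.85 and 0.77, while Pdgfra and Pdgfrb gave 0.92, -0.17 and 0.77, so Pdgfra with Pdgfrb did not hold within S135. Without the mice of S061, 18 mice remained. Pdgfra with Npnt and Tcf21 with Cthrc1 then passed on r (0.88 and 0.71, both adjusted permutation p = 0.0308) and missed on ranks (adjusted 0.0639 and 0.058). The other 4 pairs missed the threshold, with r of 0.77 for Tnc with Sfrp1, 0.76 for Pdgfra with Tcf21, -0.64 for Inmt with Sfrp1 and 0.58 for Pdgfra with Pdgfrb. Over all 24 mice Tcf21 with Npnt gave r = 0.71 (rho 0.57, permutation p = 0.0189 and 0.0232, adjusted 0.0851 and 0.131), and Inmt with Tnc gave -0.51 (rho -0.42, permutation p = 0.0662 and 0.139, adjusted 0.159 and 0.298). Tnc and Cthrc1, both genes of fibrotic fibroblasts, showed r = -0.02 (rho 0.07, permutation p = 0.94 and 0.796).

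**Figure D5:**
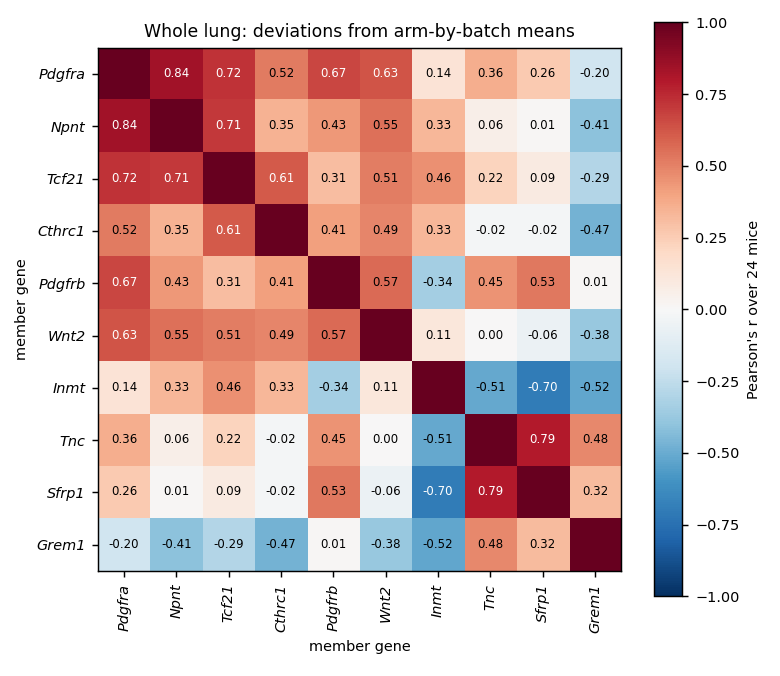
Pearson's r between each pair of the 10 genes over 24 whole lung libraries, after the mean of each arm and batch was subtracted from log2(CPM + 0.5). Among the pairs that passed, Pdgfra has r of 0.84 with Npnt and 0.72 with Tcf21, Tnc has 0.79 with Sfrp1, and Inmt has -0.70 with Sfrp1, while Tcf21 with Npnt (0.71) and Inmt with Tnc (-0.51) did not pass.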

How the data were processed

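The authors deposited 1 table of raw read counts, whole numbers per Ensembl gene and library, for 48 libraries of 24 mice. Per the labels, libraries came from anti-HA immunoprecipitation and a 3'-end kit (Lexogen QuantSeq Forward). The tools and build listed per the submitters' processing notes are STAR 2.5.2b and GRCm38. No source used here names a counting program or annotation. The letter E in a column name was read as epithelium and I as whole lung, with 0 columns unused.

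The 10 genes, their grouping by role and the tests were chosen with earlier results of these data known. By the rule for named genes, all 10 are named in every comparison that tested them. The reference table paired 0 of 42548 Ensembl IDs with symbols, so the marker and pathway lists and a search for genes of like pattern were not run.

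Counts were tested in R 4.3.3 with edgeR 4.0.16 (quasi-likelihood, TMM, filterByExpr, robust, Benjamini-Hochberg over all genes tested, threshold 0.05). Whole lung (19345 genes tested) and epithelium (17291) were fitted apart, 24 libraries each, with arm and batch as terms. Comparisons of compartments and interactions carried the mouse as a block. DESeq2 1.42.0, RLE scaling, no filter, a term for sex, arms alone, single batches and leaving out each mouse were alternatives. CPM were computed on total counts without TMM, and floors of 3 counts cover counting error only. In S151 epithelium the TMM factors were 0.81 to 0.992 in saline and 1.09 to 1.33 in bleomycin control libraries. The CPM given there thus place bleomycin control higher relative to saline than the fits do. Scripts were tested on simulated data.

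The pairing of the libraries of a mouse comes from the labels. Deviations from arm and batch means correlated at a median r of 0.305 (0.146 to 0.664) within a mouse and -0.137 between mice of the same arm and batch, over 13618 genes. Subtracting the means of so few mice pushes the between-mouse value below 0 when the within-mouse value is positive. The between-mouse value is thus no separate check of the pairing. Mice are the replicates. Promoter sequences are RefSeq's on GRCm38.p6, found for 7 of the 10 genes.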

Additional observations from a re-analysis of the deposited data

Results flagged for a closer look

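In groups of 4 to 10 mice, a mouse was singled out where its gap to the nearest other mouse exceeded Dixon's critical value for the range of its arm. Of 79 groups of mice examined, 10 held such a mouse, where chance alone gives about 1 in 20, and all arms but 3G9 span batches of different level. In whole lung, Pdgfra was 232.0 CPM in saline mouse 230, with the next saline mouse at 144.3 CPM, and 95.2 CPM in 3G9 mouse 218, with the next lowest 3G9 mouse at 136.9 CPM. Inmt was 2534.0 CPM in bleomycin control mouse 149, against 1475.2 CPM in the next. Grem1 was 2.16 CPM in bleomycin control mouse 148, against 0.913 CPM in the next. Sfrp1 was 110.6 CPM in KIRA8 mouse 20, against 42.2 CPM in the next.

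In epithelium, Pdgfra was 15.9 CPM in KIRA8 mouse 155, against 7.53 CPM in the next KIRA8 mouse, and 13.1 CPM in saline mouse 153, against 7.72 CPM in the next saline mouse. Tcf21 was 13.2 CPM in bleomycin control mouse 208R, against 5.56 CPM in the next. Cthrc1 was 6.09 CPM in saline mouse 230, against 2.5 CPM in the next. Grem1 was 0.471 CPM in 3G9 mouse 218 and 0.0 CPM in the other 3.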

How the results depend on the processing

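No result for a gene changed sign among those called, and RLE scaling, no filter on low counts and a term for sex moved no count of calls among the 10 genes by over 1.5 times. For bleomycin control against saline, whole lung calls went to 0 of 10 within S135 (main 3), and epithelial calls to 0 of 9 within S135 (main 2, and 1 to 3 when each mouse was left out). For KIRA8 against bleomycin control in whole lung (main 0), DESeq2 and S061 alone gave 1 each, and leaving out each mouse gave 0 to 1. For KIRA8 against saline in whole lung (main 0), DESeq2 gave 2 and leaving out each mouse 0 to 1. For 3G9 against saline in whole lung (main 1), DESeq2 gave 3, and leaving out S061, the arms alone and S151 alone gave 2 each, with 1 to 4 when each mouse was left out (4 without mouse 228). In epithelium, KIRA8 against saline (main 1) gave 0 without S061, with the arms alone, within S135 and in the fits without 5 single mice, otherwise 1. In epithelium, 3G9 against saline (main 1) gave 0 with the arms alone and 2 within S151. Of the 6 correlated pairs, 2 remained called on r without S061, where 18 mice remained, and neither passed on ranks. The r of the other 4 then lay at 0.77, 0.76, -0.64 and 0.58, against 0.79, 0.72, -0.70 and 0.67 over all mice. The compartment comparisons called 8 of 9 genes lower with the mouse as a replicate block and 8 in the fit with no replicate block, in saline and in bleomycin control mice. Among single genes in these fits, 3899 values kept both their sign and their side of the threshold, whatever the size of the change. A further 33 passed the threshold and 17 fell short of it. The other 147 changed sign without being called in either fit. Counts over all genes moved more. For bleomycin control against saline in whole lung, DESeq2 called 2986 genes, where edgeR called 1962. For KIRA8 against bleomycin control edgeR called 102 in whole lung, and 54 without the filter, 66 with sex as a term, 22 with the arms alone, 3 without S061 and 701 by DESeq2. For 3G9 against bleomycin control it called 38, and 0 with the arms alone, 19 without S061 and 226 by DESeq2. In epithelium KIRA8 against bleomycin control gave 45, 2 without S061 and 243 by DESeq2, and 3G9 gave 0, and 36 by DESeq2. The difference of the bleomycin response between compartments gave 68 genes, and 9 with no replicate block. The cause was not tested. Single batches hold 2 to 4 mice an arm, and Grem1, with 21 counts in saline whole lung, is limited by depth.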

Other observations

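Levels of several of the 10 genes differed between batches, and these are given as values with no test. The values are CPM on total counts. Whole lung TMM factors were 0.749 to 0.851 in S061, 0.838 to 0.964 in S135 and 1.03 to 1.32 in S151. Differences in CPM between S151 and the other batches thus include a difference in scaling. Pdgfrb in whole lung lay between 113.0 and 226.9 CPM in the 11 mice of S151, between 32.1 and 47.5 CPM in the 7 of S135 and between 31.1 and 62.8 CPM in the 6 of S061. Cthrc1 in whole lung lay between 3.26 and 8.61 CPM in S151, between 0.989 and 3.12 CPM in S135 and between 0.32 and 1.47 CPM in S061. Npnt in whole lung lay between 502.6 and 650.1 CPM in S135 and between 64.9 and 134.5 CPM in S061, and in S151 between 131.8 and 348.6 CPM except for saline mouse 230 at 608.4 CPM. That mouse also had the highest whole lung Tcf21 of all 24, at 103.4 CPM. Tcf21 in S061 lay between 8.98 and 20.3 CPM, below the lowest mouse of the other batches at 28.6 CPM. S151 differs from the other batches in control agent as well, and the effects of batch and agent cannot be told apart.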
